A study of Mus musculus with 24 samples.

Results

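The genes described here are 8 genes of cholesterol synthesis and its feedback control, named Hmgcs1, Idi1, Fdps, Fdft1, Sqle, Lss, Cyp51 and Insig1, as read in fibro/adipogenic progenitors (FAPs) of mouse skeletal muscle. FAPs are the mesenchymal cells that lie between muscle fibres and support muscle stem cells during repair. Members were chosen by gene symbol, and the values are those of every array probe annotated to them. Of the 8 genes, 7 had a named probe, with 11 probes among 25697, and 6 genes passed the detection filter among 7576 named genes. Fdft1 was not named in the probe annotation used here.

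RNA was measured on 24 Illumina bead arrays, 6 for each of 4 groups of wildtype male C57BL/6J mice. Young mice were 2 to 4 months old and old mice 20 to 24 months old. FAPs called quiescent came from uninjured animals, and those called activated were isolated 3 days after 50 µl of 50% glycerol had been injected into the muscle, an injury that damages fibres and is followed by fat deposition. In every group the cells were sorted without culture from tibialis anterior, gastrocnemius and quadriceps muscles combined, with sort markers not given in the sources used here. No group carried a transgene or an engineered deletion.

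Cholesterol is built from acetyl-CoA through the mevalonate pathway, whose isoprenoid intermediates also feed dolichol, ubiquinone and protein prenylation. When sterols in the endoplasmic reticulum fall, the SCAP protein escorts the transcription factor SREBP-2 to the Golgi apparatus for cleavage, and the released factor activates nearly every enzyme gene of the pathway. INSIG proteins retain SCAP in the endoplasmic reticulum when sterols are abundant. Dividing cells need sterol for new membranes.

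SREBP-2 is known to act at sterol regulatory elements together with the factor NF-Y, which recognises CCAAT letters. RefSeq promoter windows (GRCm38.p6), reaching from 250 bases before to 50 bases after the annotated start, had an entry for 5 of the 8 genes. Both strands were searched for TCACNCCAC as sterol element letters, for CCAAT and for TCACGTGA as E-box letters. The stretches upstream of the start are shown for the 4 of these genes that passed the detection filter, because they carry the sequence features shared within the set. Capitals mark CCAAT read on either strand (ATTGG on the strand shown) and, in Hmgcs1, the letters TCACCCCAC. The stretches lie on the plus strand at chr13:119690101-119690350 for Hmgcs1, chr13:8885356-8885605 for Idi1, chr10:76531355-76531604 for Lss and chr5:28071162-28071411 for Insig1.
Hmgcs1: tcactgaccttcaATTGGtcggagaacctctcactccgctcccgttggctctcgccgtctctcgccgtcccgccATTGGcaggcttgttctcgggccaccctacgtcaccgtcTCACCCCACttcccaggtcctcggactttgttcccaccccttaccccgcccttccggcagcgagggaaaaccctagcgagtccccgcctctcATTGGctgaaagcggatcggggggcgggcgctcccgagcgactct
Idi1: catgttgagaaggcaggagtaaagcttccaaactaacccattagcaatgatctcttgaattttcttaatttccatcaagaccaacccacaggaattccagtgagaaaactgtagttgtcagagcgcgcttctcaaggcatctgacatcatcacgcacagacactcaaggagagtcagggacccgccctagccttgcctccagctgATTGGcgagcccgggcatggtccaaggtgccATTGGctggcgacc
Lss: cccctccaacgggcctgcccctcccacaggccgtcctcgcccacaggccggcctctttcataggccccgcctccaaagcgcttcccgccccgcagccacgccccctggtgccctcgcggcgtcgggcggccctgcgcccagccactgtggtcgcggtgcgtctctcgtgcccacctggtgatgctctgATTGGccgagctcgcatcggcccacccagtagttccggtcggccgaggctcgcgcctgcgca
Insig1: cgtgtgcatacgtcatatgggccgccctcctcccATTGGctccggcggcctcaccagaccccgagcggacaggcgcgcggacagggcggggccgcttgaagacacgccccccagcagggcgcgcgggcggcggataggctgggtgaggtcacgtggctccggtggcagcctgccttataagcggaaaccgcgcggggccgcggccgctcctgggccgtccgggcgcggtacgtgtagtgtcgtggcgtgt

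CCAAT letters were found in all 5 windows of the listed genes, the fifth being Cyp51, and in 11 of the 12 windows of other sterol synthesis genes, compared with 37.4% of 32851 promoter windows. The sterol element letters were found in 1 of 5 windows, that of Hmgcs1, and in none of the 12 windows of other sterol synthesis genes, compared with 1.24% of all windows. None of the 5 windows held TCACGTGA, which was present in 0.974% of all windows. The motifs do not overlap in the stretches shown. These matches describe letters and do not identify bound sites.

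The arrays differed in other ways that touch the sterol genes. Between 6587 and 9943 probes per array were detected, a detected probe being one with a detection p under 0.01, and old activated array 4 had the fewest. All 14 FAP markers on the list passed the filter, Pdgfra, Cd34 and Dcn among them. Their mean log2 level ranged from 9.82 to 10.3 on young and 9.44 to 10.2 on old quiescent arrays, and from 8.38 to 8.81 on young and 8.25 to 8.95 on old activated arrays. Not every FAP marker fell with activation at the threshold given below. In young mice 10 of the 14 fell and none rose, beside 16.7% and 17.1% of all named genes. In old mice 11 fell and 1, Thy1, rose, beside 14% and 14.5%. Macrophage markers were present as well, with 13 of 16 past the filter and a mean log2 level of 7.05 to 7.76 on young and 7.61 to 11.1 on old quiescent arrays, and of 9.17 to 11.6 on young and 10.6 to 11.6 on old activated arrays. Endothelial markers, with 12 of 13 past the filter, lay between 9.15 and 10.1 on young quiescent and between 6.24 and 7.54 on young activated arrays. On old arrays they overlapped slightly, at 8.27 to 9.67 when quiescent and 7.68 to 8.31 when activated. The 3 measured erythroid markers had a mean of 10.65 ± 0.33 on young quiescent and 7.16 ± 0.64 on young activated arrays, and of 10.65 ± 0.79 and 8.73 ± 0.61 on the old ones, as mean ± SD over 6 arrays. Markers of mitosis, with 9 of 15 past the filter, had a mean of 4.65 to 5.19 in young quiescent and 8.44 to 8.65 in young activated arrays, and of 5.09 to 6.50 and 7.97 to 8.36 in the old groups. Among them, Aurka, Birc5 and Cdca8 had young quiescent means of 4.44, 4.44 and 4.30, below a detection bound of 4.88 there. The young quiescent mitosis mean therefore lies near background. In these sorted bulk samples, a change in how many cells of a type were present and a change in RNA per cell cannot be told apart.

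Fdps and Lss rose with activation at both ages, and Hmgcs1 rose in young mice. In young mice these 3 of the 6 measured genes rose and none fell, where 17.1% of all named genes rose and 16.7% fell. In old mice 2 of 6 rose and none fell, where 14.5% of all named genes rose and 14% fell. The groups did not overlap for 1 of the 6 genes in young mice and for 2 in old mice, against 11.4% and 4.4% of named genes that were higher without overlap. The median change over the 6 genes was 0.82 on the log2 scale in young and 0.84 in old mice, beside a median over all named genes of -0.01 in young and -0.0041 in old mice. All values below are log2 intensities after background correction and quantile normalization, errors are SD over 6 arrays for levels and SE for changes, and a gene rose or fell where limma's Benjamini-Hochberg adjusted p over all 8148 features was under 0.05.

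**Figure D1:**
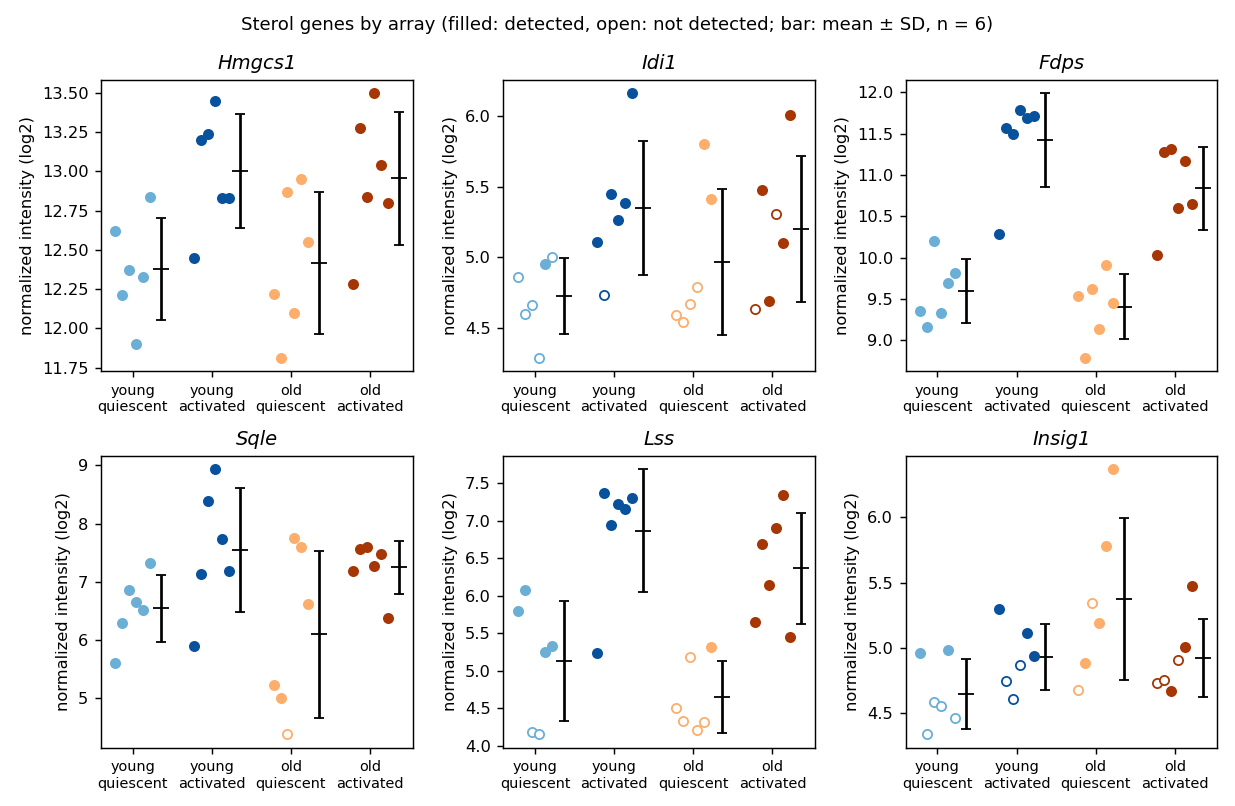
Log2 level of each of the 6 measured sterol genes on every array, by group, with 1 point per array (filled where the probe was detected, open where not) and a bar for the mean ± SD of 6 arrays. Fdps shows activated arrays above quiescent arrays at both ages without overlap, and Insig1 shows no such separation.

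Hmgcs1 encodes cytosolic HMG-CoA synthase, which acts early in the mevalonate pathway. It was detected on all 24 arrays. In young quiescent FAPs the lowest, median and highest levels were 11.90, 12.35 and 12.84, and in young activated FAPs 12.45, 13.01 and 13.45. In old quiescent FAPs they were 11.81, 12.38 and 12.95, and in old activated FAPs 12.28, 12.94 and 13.50. At each age the upper part of the quiescent range overlapped the lower part of the activated range. The change with activation was 0.62 ± 0.23 in young mice (1.54-fold, adjusted p = 0.041), with all 6 activated arrays above the quiescent mean. In old mice it was 0.54 ± 0.23 with an adjusted p of 0.0857, and 5 of 6 activated arrays lay above the quiescent mean. The young call did not hold when any one of young quiescent arrays 2, 3, 4 or 5 or young activated arrays 2, 3 or 4 was left out, with adjusted p between 0.0617 and 0.101. The adjusted p in old mice fell to 0.0478 without old quiescent array 5 and to 0.0343 without old activated array 1.

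Idi1 encodes isopentenyl diphosphate isomerase, which supplies dimethylallyl diphosphate for isoprenoid chain building. Its probe was dim, with detection on 1 of 6 young quiescent, 5 young activated, 2 old quiescent and 4 old activated arrays. The lowest, median and highest levels were 4.29, 4.76 and 5.00 in young quiescent and 4.73, 5.33 and 6.17 in young activated FAPs. In the old groups they were 4.54, 4.73 and 5.80 when quiescent and 4.64, 5.20 and 6.01 when activated. Both pairs of groups overlapped. The change was 0.62 ± 0.26 in young mice (95% confidence interval 0.08 to 1.16, adjusted p = 0.0692) and 0.23 ± 0.26 in old mice (adjusted p = 0.550). Without young activated array 2 the adjusted p in young mice was 0.0361.

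Fdps encodes farnesyl diphosphate synthase, whose product is the branch point between sterols, dolichol and prenylated proteins. It was detected on every array and showed the clearest separation by activation among the 6 genes. In young mice the lowest, median and highest levels were 9.16, 9.52 and 10.20 when quiescent and 10.28, 11.63 and 11.79 when activated. In old mice they were 8.78, 9.49 and 9.91 when quiescent and 10.03, 10.91 and 11.31 when activated. No quiescent array reached the lowest activated array of the same age. The change was 1.83 ± 0.27 in young mice, a 3.56-fold rise with an adjusted p of 1.02e-05, and 1.44 ± 0.27 in old mice, a 2.71-fold rise with an adjusted p of 0.000308. Over the 24 arrays left out in turn, the change ranged from 1.75 to 2.06 in young and from 1.31 to 1.60 in old mice and was past the threshold each time. Of the 12 arrays with the highest Fdps level, 11 were from activated FAPs.

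Fdft1, the squalene synthase gene that commits farnesyl diphosphate to sterols, was not analysed here. Sqle encodes squalene epoxidase, a rate-limiting oxygenase later in the pathway. One of its 2 probes was detected on 6, 6, 5 and 6 arrays of young quiescent, young activated, old quiescent and old activated FAPs, and the other on 0 arrays. Young quiescent arrays had lowest, median and highest levels of 5.60, 6.59 and 7.32, and young activated arrays 5.90, 7.46 and 8.93. Old quiescent arrays had 4.37, 5.92 and 7.75, and old activated arrays 6.37, 7.37 and 7.59. Old quiescent FAPs spread the most, and the activated arrays overlapped the quiescent arrays at both ages. The change was 1.01 ± 0.52 in young mice (95% confidence interval -0.07 to 2.08, adjusted p = 0.144) and 1.15 ± 0.52 in old mice (0.08 to 2.23, adjusted p = 0.102). Leaving out young activated array 1 brought the young adjusted p to 0.0483, and leaving out old quiescent array 4 or 5 brought the old one to 0.0336 or 0.0406.

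Lss encodes lanosterol synthase, which folds oxidosqualene into the first sterol of the pathway. Its probe was detected on 4 young quiescent and 1 old quiescent array, but on all 6 activated arrays at each age. The lowest, median and highest levels were 4.15, 5.29 and 6.07 in young quiescent and 5.23, 7.19 and 7.37 in young activated FAPs. Among old animals they were 4.21, 4.42 and 5.31 when quiescent and 5.46, 6.42 and 7.35 when activated. The old groups did not overlap, and the young groups overlapped through young activated array 1. The change was 1.74 ± 0.40 in young mice (3.34-fold, adjusted p = 0.00133) and 1.72 ± 0.40 in old mice (3.29-fold, adjusted p = 0.00197). These sizes depend on the background step, since without background correction the changes were 0.80 in young and 0.66 in old mice, and with the authors' normalized log2 values 0.76 and 0.63, all past the threshold.

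Cyp51 encodes lanosterol 14-alpha demethylase, which acts on the product of Lss. It failed the filter and entered no test. Its probe was detected on 2 of 24 arrays, young activated arrays 4 and 6, at log2 levels of 5.44 and 4.84.

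Insig1 encodes the sterol sensor that retains SCAP, and it is itself a known SREBP target. Its brightest probe was detected on 2, 3, 4 and 3 arrays of young quiescent, young activated, old quiescent and old activated FAPs. The lowest, median and highest levels were 4.34, 4.57 and 4.98 in young quiescent and 4.61, 4.91 and 5.30 in young activated FAPs. Old quiescent FAPs held the highest values, 4.68, 5.27 and 6.37, and old activated FAPs had 4.67, 4.83 and 5.48. All 4 groups overlapped. The change with activation was 0.28 ± 0.23 in young mice (adjusted p = 0.374) and -0.45 ± 0.23 in old mice (adjusted p = 0.150). The second Insig1 probe past the filter gave 0.09 and 0.37, so the probes differed in the sign of the old change, and the 2 remaining probes were detected on 1 array and on none.

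**Figure D2:**
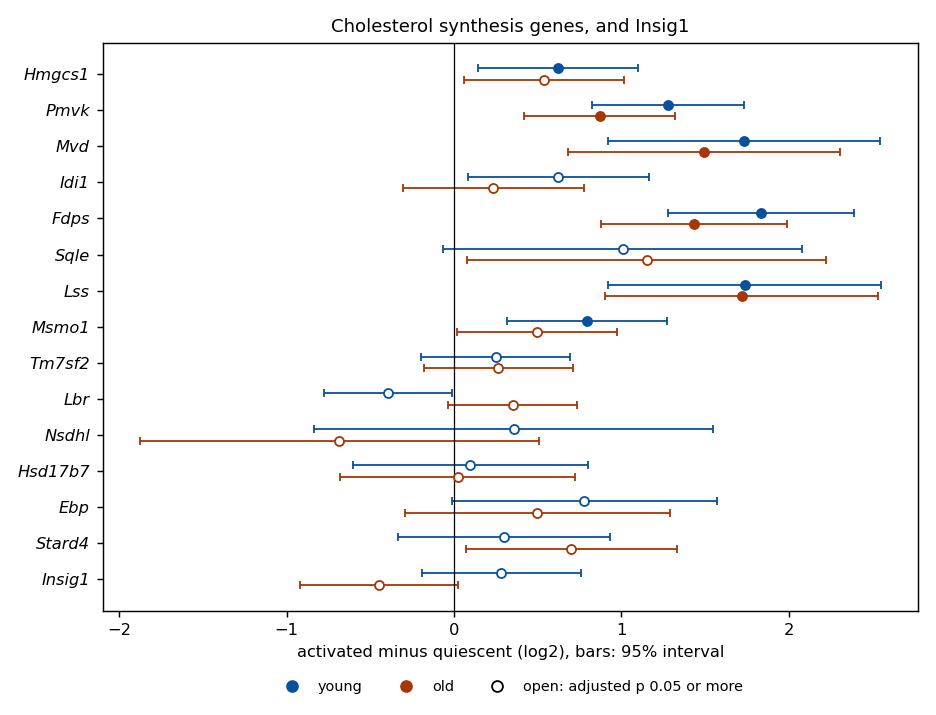
Log2 change with activation in young and old FAPs for the 6 measured sterol genes and the other measured sterol synthesis genes, with bars for the 95% confidence interval of the limma fit and open points where the adjusted p was 0.05 or more. Fdps and Lss lie well above 0 at both ages, at 1.83 and 1.74 in young and 1.44 and 1.72 in old FAPs.

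Age was compared within quiescent and within activated FAPs. None of the 6 genes passed the test in either state, where 0.607% and 0.277% of named genes did. None passed a test of whether the change with activation differed between ages, where 0.198% of named genes did. At an unadjusted p under 0.05, 1 of the 6 genes passed in each of the 3 comparisons, where 12.7% of named genes did so by age among quiescent FAPs, 11.4% by age among activated FAPs and 8.59% in the interaction. No other tool was run. Fdps was 0.58 ± 0.27 lower on the log2 scale in old than in young activated FAPs, with all 6 old arrays below the young mean and an adjusted p of 0.405. Insig1 was 0.73 ± 0.23 higher in old than in young quiescent FAPs, with all 6 old arrays above the young mean, and its adjusted p was 0.142. The second Insig1 probe gave -0.01 for the same comparison. Lymphocyte markers, with 5 of 9 past the filter, had a mean log2 level of 4.51 to 5.02 on young quiescent and 5.65 to 8.46 on old quiescent arrays. The young quiescent levels lie near background, with Cd3g at a mean of 4.33 beside a detection bound of 4.88. Old quiescent arrays 6 and 5 had the highest lymphocyte means, 8.46 and 7.17, and the highest Insig1 levels, 6.37 and 5.78. The part of lymphocytes in the Insig1 difference was not tested. The activation-by-age difference for Insig1 was -0.73 ± 0.33 with an adjusted p of 0.517, and for Hmgcs1 it was -0.08 ± 0.33 with a 95% confidence interval of -0.76 to 0.59.

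The synthesis genes varied together across arrays. The brightest Insig1 probe followed Idi1, which was also near background, but not the other 4. Over the 24 arrays, the correlation of each gene with the mean profile of the other 5 was 0.785 for Hmgcs1, 0.769 for Fdps, 0.672 for Idi1, 0.654 for Lss, 0.537 for Sqle and 0.034 for Insig1. After the group means were subtracted, 13 of the 15 gene pairs had a correlation above 0, compared with 12 before, with a median of 0.318 and a range of -0.0062 to 0.635. Insig1 had a correlation of 0.474 with Idi1 over the 24 arrays and of 0.587 after the group means were subtracted, the second highest of the 15 pairs. Both probes were dim, each detected on 12 of 24 arrays, and the second Insig1 probe was not set beside Idi1. The part of shared background in this correlation was not tested. With Hmgcs1, Sqle, Fdps and Lss, the correlations of Insig1 over the 24 arrays lay between -0.166 and 0.0699. Genes of 1 array share its hybridisation and cell composition, so these correlations are descriptions. Outside the gene lists, the genes whose profile was most like the mean of the 6 were Asns with a correlation of 0.884, Gars with 0.861, Ddx39b with 0.852, Colgalt1 with 0.841, Mmab with 0.826 and Got2 with 0.825. Asns encodes asparagine synthetase and Gars the glycyl-tRNA synthetase. The mean Asns level went from 6.28 ± 0.33 in quiescent to 8.13 ± 0.43 in activated FAPs of young mice, and from 6.86 ± 0.63 to 7.57 ± 0.67 in those of old mice.

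Within activated FAPs, the array with the lowest sterol gene mean at each age had the highest macrophage marker mean. Young activated array 1 had a mean log2 level over the 6 sterol genes of 7.38 and a macrophage marker mean of 11.6, while young activated array 4 had 8.59 and 9.17, the highest and the lowest of the group. Old activated array 1 had a sterol gene mean of 7.42 and a macrophage mean of 11.6. Among old quiescent arrays, array 2 had the lowest sterol mean, 6.56, with the highest macrophage mean, 11.1. Young quiescent FAPs did not share the pattern, since array 4 had both the lowest sterol mean, 6.81, and the lowest macrophage mean, 7.05. Macrophage markers were not the only ones to differ. Young activated array 1, old activated array 1 and old quiescent array 2 also had the lowest FAP marker means of their groups, 8.38, 8.25 and 9.44. Their muscle marker means, with 7 of 12 markers past the filter, were the highest of their groups, at 7.32, 9.74 and 8.47. Which of these differences goes with the sterol means was not tested.

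When the macrophage marker mean was added to the fit as a covariate, an alternative chosen after the data had been seen, 4 of the 6 genes rose with activation at each age, where 4.88% of named genes rose in young and 3.74% in old mice. Fdps changed by 2.80 ± 0.40 in young (adjusted p = 5.54e-05) and by 2.13 ± 0.33 in old mice (adjusted p = 0.000268). Sqle changed by 2.96 ± 0.76 and 2.56 ± 0.63, with adjusted p of 0.0114 and 0.0112. Hmgcs1 changed by 1.50 ± 0.33 and 1.17 ± 0.28 (adjusted p = 0.00415 and 0.00906), and Lss by 2.52 ± 0.66 and 2.28 ± 0.55 (adjusted p = 0.0136 and 0.00994). All 4 changes were larger with the covariate than without it. The fitted slope per unit of macrophage marker mean was -0.33 for Fdps (adjusted p = 0.078) and -0.66 for Sqle (adjusted p = 0.059). It was -0.30 for Hmgcs1 (adjusted p = 0.055) and -0.26 for Lss (adjusted p = 0.432), so none of these slopes passed the threshold. The number of named genes past the threshold for activation fell from 2559 to 881 in young and from 2155 to 678 in old mice. The covariate also widened the standard error of the activation change, before the spread of each gene is counted, 1.71 times in young and 1.42 times in old mice, so fewer calls partly reflect lower precision. The macrophage ranges of young quiescent and young activated arrays do not overlap, so the young values extrapolate along the covariate. In old mice only quiescent array 2, at 11.1, reached the activated range of 10.6 to 11.6. The old values therefore extrapolate for the most part as well. The part that the lower mean levels of FAP, endothelial and erythroid markers or the higher mean level of mitosis markers had in these changes was not tested.

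**Figure D3:**
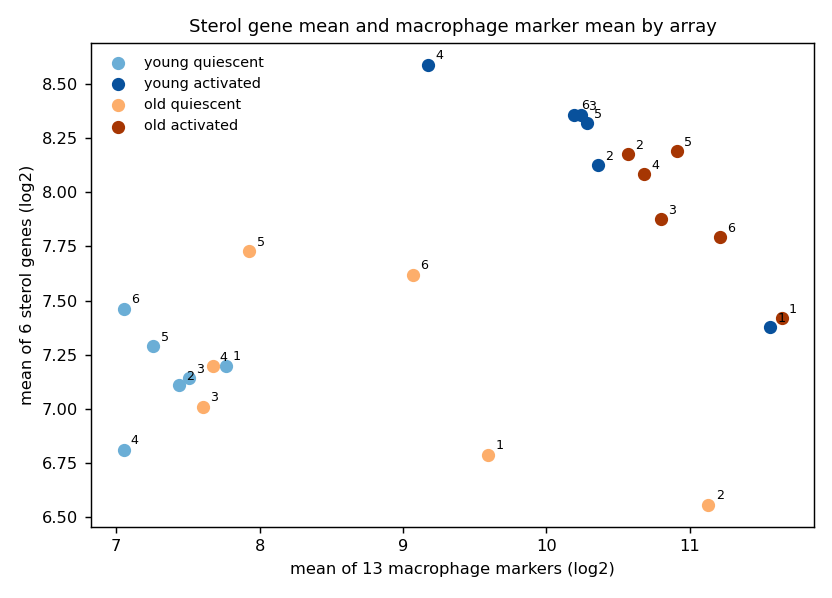
Mean log2 level of the 6 measured sterol genes against the mean log2 level of 13 macrophage markers, with 1 point per array labelled by its number and coloured by group. In both activated groups array 1 lies at the lowest sterol mean, 7.38 in young and 7.42 in old mice, and at the highest macrophage mean of its group.

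Some other enzymes of the pathway also rose with activation. Of 15 further sterol synthesis genes, 11 were named and 9 passed the filter. In young mice 3 of these 9 rose and none fell, with a median change of 0.36, and in old mice 2 rose and none fell, with a median of 0.50. The share of all named genes that rose was 17.1% in young and 14.5% in old mice, so the old count is near that share. Pmvk, phosphomevalonate kinase, had lowest, median and highest levels of 6.26, 6.67 and 7.09 in young quiescent and 7.62, 7.96 and 8.42 in young activated FAPs, with no overlap. In old mice its levels were 5.95, 6.67 and 6.97 when quiescent and 6.68, 7.54 and 8.08 when activated, which overlapped. Pmvk changed by 1.28 ± 0.22 in young (adjusted p = 6.93e-05) and by 0.87 ± 0.22 in old mice (adjusted p = 0.00432).

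Mvd, the mevalonate diphosphate decarboxylase gene, changed by 1.73 ± 0.39 in young (adjusted p = 0.00131) and 1.49 ± 0.39 in old mice (adjusted p = 0.00591). Its probe was detected on 5 young and 3 old quiescent arrays, and the authors' normalized log2 values gave changes of 0.82 and 0.59. Msmo1, a C-4 methylsterol oxidase gene, rose by 0.79 ± 0.23 in young mice (adjusted p = 0.00975), and its change in old mice was 0.50 ± 0.23 (adjusted p = 0.115). With the macrophage covariate none of these 3 genes passed the test in young mice, where the changes were 1.15 for Pmvk (adjusted p = 0.0510), 0.75 for Mvd (adjusted p = 0.501) and 1.09 for Msmo1 (adjusted p = 0.0751). In old mice the covariate values were 0.77 for Pmvk (adjusted p = 0.125) and 0.79 for Mvd (adjusted p = 0.389).

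Among 11 genes of sterol sensing, 10 were named and 6 passed the filter, and none rose at either age in the fit of all 4 groups, beside 17.1% of named genes in young and 14.5% in old mice. Srebf2, which encodes SREBP-2, had lowest, median and highest levels of 5.76, 6.80 and 6.88 in young quiescent and 6.94, 7.11 and 7.69 in young activated FAPs, without overlap. Its change was 0.64 ± 0.29 in young (adjusted p = 0.0976) and 0.63 ± 0.29 in old mice (adjusted p = 0.114). In young mice Srebf2 passed the test with only the compared groups in the fit (adjusted p = 0.0296) and with array weights (adjusted p = 0.0347). The old adjusted p was 0.0216 without old activated array 6, and with the macrophage covariate Srebf2 passed at both ages, at 1.53 (adjusted p = 0.0302) and 1.27 (adjusted p = 0.0369). Srebf1, the gene of SREBP-1, was detected on 0 arrays by either of its 2 probes. Scap, the SREBP escort gene, changed by 0.11 ± 0.30 in young mice and fell by 0.83 ± 0.30 in old mice (adjusted p = 0.0408), a call that 7 of the 24 single-array omissions ended, old quiescent arrays 3, 5 and 6 and old activated arrays 1, 2, 3 and 5. With the macrophage covariate the old change of Scap was -0.31 (adjusted p = 0.690). Insig2 changed by -0.23 ± 0.40 and -0.21 ± 0.40.

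Mbtps1, the gene of the site-1 protease that cleaves SREBPs, fell by 0.53 ± 0.20 in young mice (adjusted p = 0.0418). That call ended with the omission of any one of young quiescent arrays 1, 2, 3, 5 and 6 and young activated arrays 2, 3, 4 and 6. With the macrophage covariate the Mbtps1 change was -0.21 (adjusted p = 0.746). Its probe was detected on 5 young quiescent and 2 young activated arrays. The young activated mean of 4.84 lay at the detection bound of 4.845 there. With the authors' normalized log2 values the young change was -0.15 (adjusted p = 0.0800).

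Uptake genes did not move as a group. Of 10 listed, 6 were named and 4 passed the filter, of which 2 rose and 2 fell in young mice and 2 fell in old mice, beside 17.1% of named genes that rose and 16.7% that fell in young and 14% that fell in old mice. Vldlr, the very low density lipoprotein receptor gene, had lowest, median and highest levels of 8.60, 8.92 and 9.55 in young quiescent and 5.41, 6.54 and 6.75 in young activated FAPs, without overlap. The old groups overlapped, at 7.76, 9.13 and 10.15 when quiescent and 4.38, 6.89 and 8.39 when activated. Vldlr fell by 2.76 ± 0.46 in young (adjusted p = 4.26e-05) and by 2.42 ± 0.46 in old mice (adjusted p = 0.000323). Vldlr is also expressed by endothelial cells, whose markers were lower on the activated arrays, and their part in the fall was not tested.

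Lrp1, a large lipoprotein receptor gene, fell by 1.28 ± 0.28 in old mice (adjusted p = 0.00120) and by 0.73 ± 0.28 in young mice (adjusted p = 0.0433). The young Lrp1 call ended when any one of young quiescent arrays 3, 4, 5 or 6 or young activated arrays 2, 3 or 4 was omitted. Npc2, which carries cholesterol out of lysosomes, rose by 1.58 ± 0.35 in young mice (adjusted p = 0.00116), and its change was 0.92 ± 0.35 in old mice (adjusted p = 0.0541). Lipa, the lysosomal acid lipase gene, was not well above background on any young quiescent array and was at least 1.71-fold higher in young activated FAPs (adjusted p = 0.00627). This bound sets the mean of the activated arrays against the lowest signal of a detected probe on each quiescent array. With the macrophage covariate the young changes were 0.05 for Npc2 (adjusted p = 0.965), -0.22 for Lipa (adjusted p = 0.771), -0.41 for Lrp1 (adjusted p = 0.643) and -1.62 for Vldlr (adjusted p = 0.167). Lrp1 in old mice changed by -1.04 with the covariate (adjusted p = 0.0973), and Vldlr by -1.59 (adjusted p = 0.103).

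Of 11 genes of sterol efflux, storage and oxysterol turnover, 8 were named and 7 passed the filter. In young mice 3 of the 7 rose and 1 fell, beside 17.1% and 16.7% of all named genes, and in old mice 2 rose and 1 fell, beside 14.5% and 14%. Nceh1, which hydrolyses cholesteryl esters, rose by 2.13 ± 0.45 in young (adjusted p = 0.000734) and 2.52 ± 0.45 in old mice (adjusted p = 0.000207). Cyp7b1, an oxysterol hydroxylase gene, rose by 2.66 ± 0.41 in young (adjusted p = 2.10e-05) and 1.28 ± 0.41 in old mice (adjusted p = 0.0223), the old call ending when old quiescent array 2, old quiescent array 3 or old activated array 2 was omitted. Its probe was detected on 3 young and 5 old quiescent arrays, and the authors' normalized log2 values gave changes of 1.31 and 0.61. Cyp27a1, a mitochondrial sterol hydroxylase gene, fell by 2.80 ± 0.45 in young (adjusted p = 3.29e-05) and by 1.61 ± 0.45 in old mice (adjusted p = 0.00914). Apoe, a lipid carrier gene with high expression in macrophages, rose by 1.35 ± 0.45 in young mice (adjusted p = 0.0223), a call lost without young activated array 1 (adjusted p = 0.0709).

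With the macrophage covariate some calls among these genes ended, and differences between the genes were not tested. Cyp7b1 kept its call with changes of 3.51 in young (adjusted p = 0.00149) and 1.89 in old mice (adjusted p = 0.0398). Nceh1 changed by -0.25 in young (adjusted p = 0.811) and 0.80 in old mice (adjusted p = 0.249), and Cyp27a1 by -2.31 (adjusted p = 0.0549) and -1.26 (adjusted p = 0.240). Apoe turned to -1.28 in young mice (adjusted p = 0.0392).

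Fatty acid synthesis genes, many of which respond to SREBP-1, moved in both directions. All 12 listed were named and 9 passed the filter, and their median change was -0.24 in young and -0.29 in old mice. In young mice 1 of the 9 rose and 3 fell, beside 17.1% and 16.7% of all named genes, and in old mice none rose and 3 fell, beside 14.5% and 14%. Scd1, the stearoyl-CoA desaturase gene, had lowest, median and highest levels of 7.25, 8.02 and 8.19 in young quiescent and 5.58, 6.79 and 7.15 in young activated FAPs, without overlap. It fell by 1.20 ± 0.26 in young (adjusted p = 0.000788) and by 1.32 ± 0.26 in old mice (adjusted p = 0.000480). With the macrophage covariate the Scd1 changes were -1.03 in young (adjusted p = 0.145) and -1.19 in old mice (adjusted p = 0.0448).

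Thrsp, a lipogenic regulator gene, was not well above background on any young activated array and was at least 2.24-fold lower there than in young quiescent FAPs (adjusted p = 5.80e-05). In old mice Thrsp fell by 1.33 ± 0.29 (adjusted p = 0.00137). Elovl6, a fatty acid elongase gene, rose by 0.98 ± 0.30 in young mice (adjusted p = 0.0135), while Elovl5 fell by 0.87 ± 0.27 (adjusted p = 0.0168), the Elovl5 call ending without young quiescent array 1 or 2 or young activated array 6. The Elovl6 probe was detected on 2 of 6 young quiescent arrays, and its young change was 0.30 with the authors' normalized log2 values. Me1, the cytosolic malic enzyme gene, fell by 1.18 ± 0.36 in old mice (adjusted p = 0.0160). With the macrophage covariate, which widened the standard errors, the young changes were 1.04 for Elovl6 (adjusted p = 0.215) and -0.94 for Elovl5 (adjusted p = 0.223), and the old change of Me1 was -1.59 (adjusted p = 0.0504). Me1 in old mice changed by -0.78 (adjusted p = 0.0614) when old quiescent array 2 and old activated array 4 were both left out. None of the genes in these further lists passed the test for age or for its interaction with activation.

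**Figure D4:**
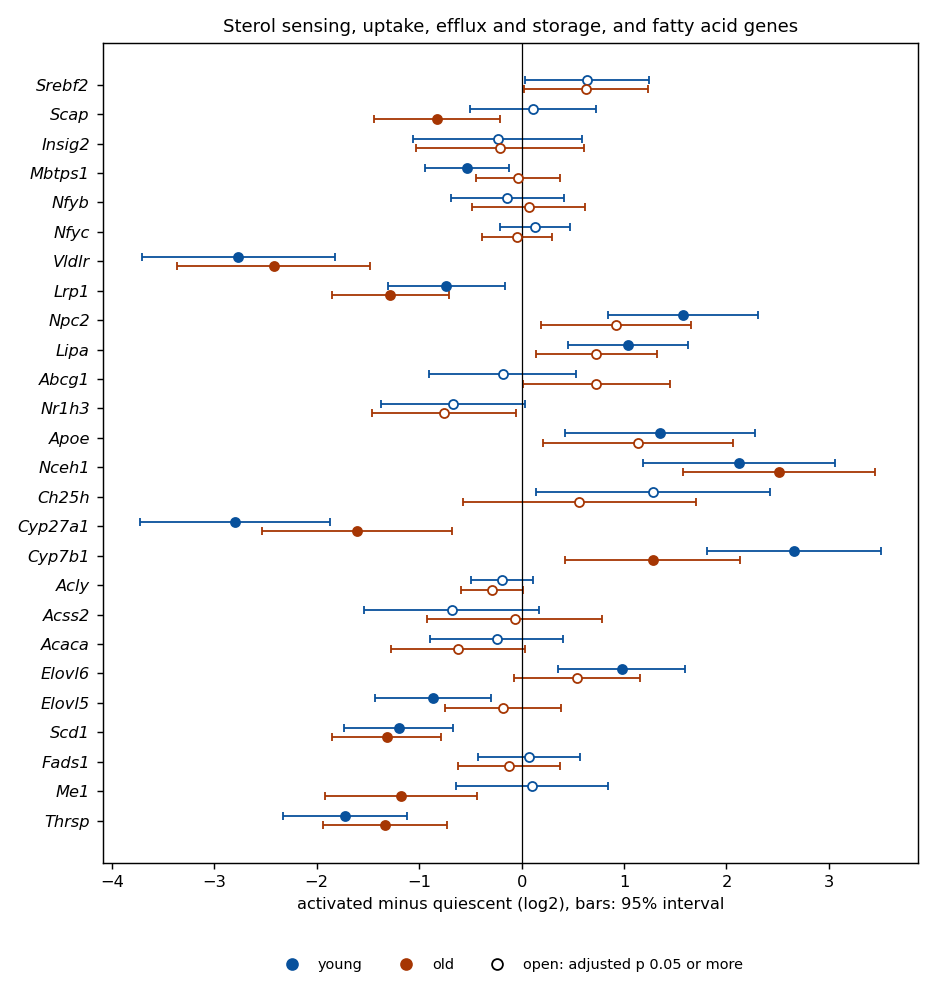
Log2 change with activation in young and old FAPs for measured genes of sterol sensing, uptake, efflux and storage, and fatty acid synthesis, with bars for the 95% confidence interval and open points where the adjusted p was 0.05 or more. Lipa and Thrsp in young FAPs are drawn at the fitted change, where the text also gives a ratio to the detection bound. Changes lie on both sides of 0, from -2.80 for Cyp27a1 to 2.66 for Cyp7b1 in young FAPs.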

How the data were processed

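The 24 arrays carried 25697 probes, and each array has an intensity without normalization and a detection p-value per probe, deposited by the authors, per the file headers. A second table of normalized log2 values deposited by the authors served as an alternative and differed by at most 0.118 from quantile-normalized log2 intensities without background correction, every column having a median of 6.71. Partek is named in the submitters' processing notes. The genome build is not given in the sources used here.

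Intensities were background-corrected with nec of limma 3.58.1 (R 4.3.3) and offset by 16. Quantile normalization between arrays and a log2 transform followed. A probe was kept where its detection p was under 0.01 on at least 6 arrays, which left 10048 probes. Each gene was represented by its brightest kept probe, giving 7576 named genes and 572 unnamed probes. Of all probes, 23978 had 1 gene symbol in the platform annotation, 1719 were unnamed here, and 23962 had an Entrez identifier listed by RefSeq. Levels of different probes were not compared.

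A limma model with 4 group means gave 5 comparisons: activation in young, activation in old, age in quiescent, age in activated, and the interaction. Adjustment was by Benjamini-Hochberg across all 8148 features. The procedure was tested on simulated data. The arrays are labelled as biological replicates. Their number limits the precision. The sources used here name no chip or scan batch. Each group has its own letter in the column names, with no stated meaning, so a batch behind that letter and the group cannot be told apart. No 2 arrays held identical intensities.

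The sterol genes, the pathway and marker lists and the tests were chosen with earlier results of these data known. Named genes were all 8 sterol genes, the genes of each pathway list past the threshold in any comparison (up to 8 a list), Srebf1, Srebf2, Scap and Insig2, the 6 genes outside the lists with the most similar profile, and up to 4 markers of each cell type. Alternatives covered the authors' values, background correction, offset, detection filter, probe summary, groups in the fit, array weights, scaling, a replicate block, 2 old arrays left out together and each array left out in turn, and the macrophage marker mean as a covariate was added after the data had been seen. Promoter sequences came from RefSeq (GRCm38.p6).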

Additional observations from a re-analysis of the deposited data

Results flagged for a closer look

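Each of the 6 measured sterol genes was checked in each of the 4 groups for an array far from the others, which made 24 groups of 6 arrays. An array stood out where its gap to the nearest array was past Dixon's critical share of the group's range, which chance gives in about 1 in 20 groups. This was so in 3 of the 24.

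Fdps and Lss were both far lower in young activated array 1 than in the rest of its group. Fdps was at a log2 level of 10.28 there, with the nearest array at 11.5 and a gap of 0.806 of the range. Lss was at 5.23, with the nearest array at 6.94 and a gap of 0.799 of the range. The macrophage marker mean was 11.6 on that array, the highest of its group, and the FAP marker mean was 8.38, the lowest of its group. Without it the change with activation in young mice was 2.06 for Fdps and 2.07 for Lss.

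Sqle in old activated array 6 was the third, at 6.37 with the nearest array at 7.19 and a gap of 0.666 of the range.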

How the results depend on the processing

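The labels do not say what arrays with the same replicate number share. Over 36 same-numbered pairs of arrays the correlation of deviations from the group means ranged from -0.0903 to 0.365, and 8 were above 0.1. Pairs with different numbers were not set beside them, so these values cannot show whether the numbers mark a pairing. With the replicate block the counts of sterol genes past the threshold stayed at 3 with activation in young mice, 2 with activation in old mice and 0 elsewhere, but Hmgcs1 in young mice lost its call (adjusted p = 0.0527) and Idi1 gained one (0.0274). Fdps and Lss passed the test at both ages under all of the alternatives in which they were measured, 12 for Fdps and 11 for Lss, and under all 24 single-array omissions. Activation in young mice counted 5 sterol genes with array weights, where Idi1 (adjusted p = 0.0179) and Sqle (0.0195) joined. Activation in old mice counted 1 among probes detected on all 24 arrays, where 2 of the genes were tested, and 4 with the macrophage covariate, which was chosen after the data had been seen. Leaving out 1 array gave 2 to 4 sterol genes for activation in young, 2 to 4 in old (4 without old quiescent array 5) and 0 for age and the interaction. Without a detection filter Hmgcs1 in young mice had an adjusted p of 0.0700, and with only the compared groups in the fit Idi1 had 0.0372. The changes on the log2 scale ranged over the alternatives from 0.63 to 2.96 for Sqle in young, 0.48 to 2.56 for Sqle in old, 0.31 to 1.17 for Hmgcs1 in old and 0.19 to 1.03 for Idi1 in young mice. Signs turned for differences that were not called, and for 3 called pathway genes under the covariate. The Insig1 age difference in activated FAPs was 2.33e-05 with the authors' values, 0.000117 without background correction, 0.13 as the mean of probes, 0.011 with array weights, 0.0028 with 75th percentile scaling and 0.031 with the covariate. The Sqle interaction was -0.15 with the authors' values and without background correction, -0.081 with an offset of 50, -0.082 without old quiescent array 2 and old activated array 4, and -0.40 with the covariate. The covariate also gave 0.30 for Fdps and 0.54 for Sqle by age in quiescent, 0.15 for Hmgcs1 and 0.14 for Sqle by age in activated FAPs, and among pathway genes -0.25 for Nceh1, -1.28 for Apoe and -0.22 for Lipa with activation in young mice. Single omissions moved the interaction from -0.20 to 0.051 for Hmgcs1, from -0.35 to 0.18 for Lss and from -0.20 to 0.48 for Sqle. The age difference in activated FAPs moved from -0.15 to 0.092 for Hmgcs1, from -0.31 to 0.014 for Idi1 and from -0.12 to 0.067 for Insig1. That in quiescent FAPs moved from -0.066 to 0.16 for Hmgcs1. The activation change moved from -0.56 to 0.075 for Insig2 in old and from -0.047 to 0.24 for Scap in young mice. Mbtps1 in young mice lost its call under 8 alternatives. Besides the covariate, calls ended without a detection filter for Apoe and Lrp1 in young and Cyp7b1 and Scap in old mice, with 75th percentile scaling for Lrp1 and Fnta in young, with array weights for Cyp7b1 and Scap in old, with only the compared groups for Me1 and Scap in old mice, and without old quiescent array 2 and old activated array 4 for Cyp7b1 (adjusted p = 0.0931) and Me1 (0.0614) in old mice. The causes were not tested. Of 2299 recomputed values, 2144 kept direction and side of the threshold. Idi1, Lss in quiescent FAPs and Insig1 lay near background, which limits the size of their changes. Among the pathway genes, so did Nus1, Cyp7b1 and Elovl6 in young quiescent, Mvd in old quiescent and Mbtps1 in young activated FAPs.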

Other observations

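Farnesyl diphosphate also feeds branches other than sterols, and 7 of 11 listed genes of those branches passed the filter. Their median change with activation was -0.19 in young and -0.16 in old mice. Nus1, which encodes a subunit of the enzyme that builds dolichol for protein glycosylation, had lowest, median and highest log2 levels of 4.19, 4.94 and 5.85 in young quiescent and 6.51, 7.14 and 7.41 in young activated FAPs, without overlap. The old groups overlapped, at 4.26, 5.40 and 6.72 when quiescent and 6.37, 6.99 and 7.54 when activated. Nus1 rose by 2.17 ± 0.34 in young (adjusted p = 2.11e-05) and by 1.59 ± 0.34 in old mice (adjusted p = 0.00101). Its probe was detected on 3 young and 4 old quiescent arrays. These sizes depend on the background step, since the authors' normalized log2 values gave 0.90 and 0.68, both past the threshold. With the macrophage marker mean as a covariate its changes were 1.76 (adjusted p = 0.0499) and 1.30 (adjusted p = 0.0918). Fnta, a subunit gene of the farnesyl and geranylgeranyl transferases, fell by 0.48 ± 0.17 in young mice (adjusted p = 0.0297), and this call ended without young quiescent array 4 or 6 or young activated array 1 and with the covariate (adjusted p = 0.839). No gene of these branches passed the test for age or the interaction.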
